A study of Mus musculus with 7 samples.

Results

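The folate one-carbon and glycine cleavage genes were the 9 genes Gldc, Amt, Gcsh, Dld, Mthfd1, Mthfd1l, Mthfd2, Shmt1 and Shmt2, chosen by symbol from a table of 25461 genes. All 9 were listed, and all 9 passed the minimum mean of 1 FPKM that 16095 genes passed. RNA was sequenced from whole mouse embryos of the strain B6C3F1 at embryonic day 11.5, 3 SLMAP3 knockout (KO) and 4 wild type (WT), each embryo a library of its own with the tail taken off for genotyping. KO embryos were homozygous for a Slmap allele without exon 3, which had been made with a ubiquitous CMV-cre and bred on without cre; the allele removes the SLMAP3 isoform and spares SLMAP1 and SLMAP2. WT embryos carried both intact alleles and came from the same kind of breeding of heterozygotes. Values were FPKM, fragment counts scaled by transcript length and library size, a scale that allows levels of different genes to be compared.

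Folate one-carbon metabolism moves single carbon units, mostly taken from serine and glycine, into purines, thymidylate and methyl groups. In mitochondria SHMT2 takes a carbon from serine, MTHFD2 oxidises it and MTHFD1L releases it as formate, and in the cytosol MTHFD1 takes formate up again while SHMT1 interconverts serine and glycine. The glycine cleavage system, also mitochondrial, is made of GLDC, which decarboxylates glycine, AMT, which hands the carbon to folate, the lipoate carrier protein GCSH and the dehydrogenase DLD, which is shared with the pyruvate and other 2-oxoacid dehydrogenases. Loss of Gldc, Amt or Mthfd1l in mice is known to give neural tube defects.

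In GENCODE M21 on GRCm38 all 9 are protein-coding genes, on 7 chromosomes. The cleavage system genes are Gldc at chr19:30098447-30175429 (minus strand), Amt at chr9:108296853-108302302 (plus strand), Gcsh at chr8:116981810-116993537 (minus strand) and Dld at chr12:31331277-31351453 (minus strand). The folate enzymes are Mthfd1 at chr12:76255298-76319803 (plus strand), Mthfd1l at chr10:3973118-4167081 (plus strand), Mthfd2 at chr6:83305691-83325908 (minus strand), Shmt1 at chr11:60788104-60811718 (minus strand) and Shmt2 at chr10:127517123-127522444 (minus strand).

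Promoter sequence is shown for Mthfd2, Shmt2 and Mthfd1l, the members that stood furthest above the other embryos in the KO embryo KOAC10-8, and it was taken from RefSeq (GRCm38.p6), where all 9 members had an entry. Each stretch is 240 bases long, with 10 bases between its end and the start of transcription, and that of Mthfd2 lies within the longer span GENCODE gives the gene. Capitals mark the CCAAT box (CCAAT) and the GC box (GGGCGG) on either strand.
Mthfd2, chr6:83317615-83317854, minus strand: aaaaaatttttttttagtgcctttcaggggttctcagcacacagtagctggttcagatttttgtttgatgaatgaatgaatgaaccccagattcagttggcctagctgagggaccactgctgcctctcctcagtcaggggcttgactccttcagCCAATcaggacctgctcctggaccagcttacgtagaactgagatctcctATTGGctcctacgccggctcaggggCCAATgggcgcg
Shmt2, chr10:127522455-127522694, minus strand: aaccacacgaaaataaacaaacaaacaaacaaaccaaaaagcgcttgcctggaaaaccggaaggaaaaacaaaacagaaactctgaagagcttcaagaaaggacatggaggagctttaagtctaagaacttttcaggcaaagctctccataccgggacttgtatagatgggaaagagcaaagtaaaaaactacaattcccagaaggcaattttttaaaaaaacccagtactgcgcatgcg
Mthfd1l, chr10:3972825-3973064, plus strand: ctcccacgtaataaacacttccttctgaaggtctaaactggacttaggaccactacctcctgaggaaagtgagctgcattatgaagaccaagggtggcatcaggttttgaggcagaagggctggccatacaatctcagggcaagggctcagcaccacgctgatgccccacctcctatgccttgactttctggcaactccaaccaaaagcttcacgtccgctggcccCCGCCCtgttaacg
The Mthfd2 stretch held 3 CCAAT boxes, the Mthfd1l stretch 1 GC box and the Shmt2 stretch neither, so the 3 genes did not share these elements. Over the 250 bases before each start, 33.8% of all 32851 promoters held CCAAT and 32.7% held GGGCGG. Another motif searched on both strands, TGATGNAAN, is the C/EBP-ATF response element, the binding sequence of the stress transcription factor ATF4 with its C/EBP partners. It was in 3.44% of all promoters and in 0 of the 9 member promoters. Of the 10 genes in a list of ATF4-responsive genes, most of them high together with Mthfd2 and Shmt2 in KOAC10-8, 4 held it (Asns, Chac1, Atf3 and Slc7a11), and the others, among them Trib3, Sesn2 and Atf5, did not. It is shown for Asns and Chac1, in capitals with 10 bases on each side. In Asns it lay 15 to 23 bases before the start and in Chac1 186 to 194 bases before it, on the opposite strand.
Asns, chr6:7693214-7693242, minus strand: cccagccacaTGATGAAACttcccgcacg
Chac1, chr2:119351038-119351066, plus strand: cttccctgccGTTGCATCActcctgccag
A match is a description of these letters, and its absence from a window of 250 bases says nothing on the factor.

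The sum of FPKM ran from 770063 to 861448 per embryo, highest in the KO embryo KOAC10-8. The table gives FPKM without read totals, and the spacing of low values gave relative depths between 0.809 and 1.21. Slmap, the targeted gene, was at 16.01, 16.6 and 19.6 FPKM in KO embryos KOAC10-5, KOAC10-8 and KOAC8-6, and at 22.8, 23.9, 31.2 and 29.1 FPKM in WT embryos KOAC10-2, KOAC10-7, KOAC8-1 and KOAC9-1. The KO mean of Slmap was 65.1% of WT, and it was not called (adjusted p = 0.278 in the limma fit described below). It was lower in every KO embryo, as were 963 of the 16095 genes tested. Since FPKM is per gene, the spared isoforms are part of the Slmap value. The liver markers other than Ttr split the embryos without regard to genotype. Ttr was lower in every KO embryo, at 14.4 to 15.3 FPKM against 32.3 to 53.1 FPKM in WT embryos. The 10 hepatoblast markers summed to 31.1, 44.8 and 38.6 FPKM in KOAC10-5, KOAC10-2 and KOAC10-7 and to between 483 and 868 FPKM in the other 4. Ttr, which is among the 10, gave 15.3, 35.3 and 32.3 FPKM of the 3 low sums. Afp was at 1.30 to 5.18 FPKM in the 3 embryos with low sums against 255 to 376 FPKM in the other 4. Alb was at 0.313 to 1.63 FPKM against 65.2 to 180 FPKM. Trophoblast markers summed to at most 0.964 FPKM in any embryo, with Prl3b1 no higher than 0.841 FPKM and Tpbpa no higher than 0.145 FPKM. In whole embryos fewer cells of a type and less RNA per cell cannot be told apart.

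In the WT embryos the members spanned a wide range of levels. Dld was highest at 70.9 ± 2.10 FPKM (SD, n = 4), followed by Gcsh at 56.8 ± 1.99 FPKM and Shmt2 at 46.7 ± 3.56 FPKM. Mthfd1 was at 27.3 ± 3.40 FPKM, Shmt1 at 26.6 ± 1.42 FPKM and Mthfd2 at 21.4 ± 2.01 FPKM. The lowest were Amt at 17.9 ± 0.622 FPKM, Gldc at 10.22 ± 1.02 FPKM and Mthfd1l at 8.32 ± 1.67 FPKM. In this order the WT values of Mthfd1 and Shmt1 overlapped, as did those of Gldc and Mthfd1l, and the others lay apart from their neighbours. The carrier protein gene Gcsh was therefore listed well above its decarboxylase partner, with a Gcsh to Gldc ratio of 5.597 ± 0.542 in WT and 4.38 ± 0.230 in KO embryos.

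**Figure D1:**
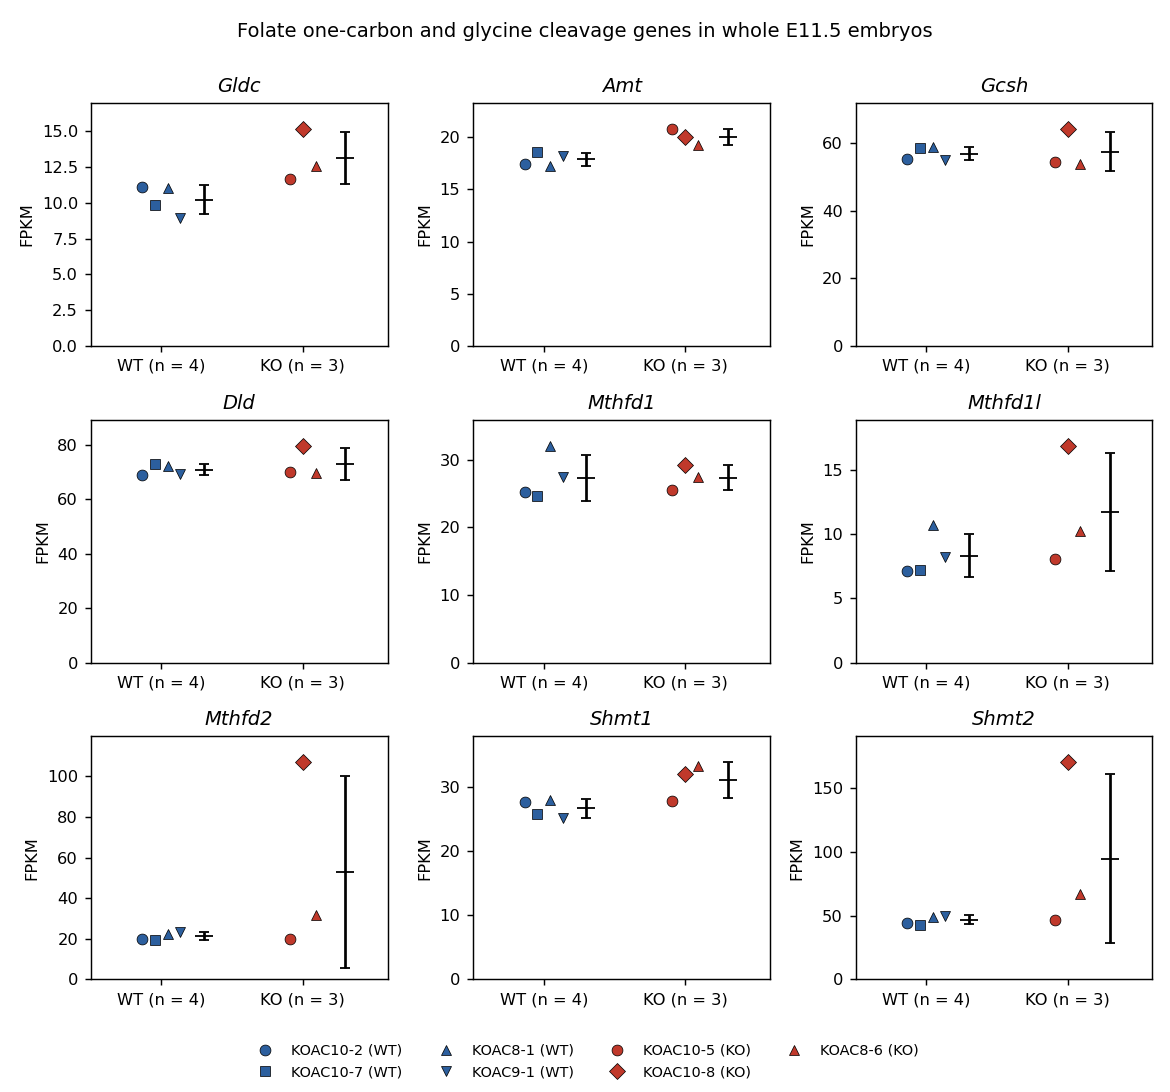
FPKM of the 9 members in each of the 7 embryos, 1 panel per gene with its own axis from 0. Blue symbols are the 4 WT and red symbols the 3 KO embryos, with mean and SD beside them. The red diamond, KO embryo KOAC10-8, stands far above the other 6 embryos for Mthfd2 (107 FPKM) and Shmt2 (170 FPKM), and for Gldc and Amt all 3 KO embryos lie above all 4 WT embryos.

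To ask whether the loss of SLMAP3 changed these genes, the genotypes were set against each other in a limma fit of log2(FPKM + 1) to all 16095 genes. Of the 9 members 0 passed an adjusted p of 0.05, which 0.0373% of all genes tested did. At an unadjusted limma p under 0.05, Gldc, Amt and Shmt1, 3 of the 9, were higher in KO and 0 were lower, beside 5.27% of all genes higher in KO. The 9 differences were all above 0, as were 8554 of all 16095 genes. Those of Mthfd1 and Gcsh were 0.01 (SE 0.10 and 0.07), and the members were chosen with earlier results of these data known. The median of the 9 was 0.21 on the log2 scale against 0.01 over all genes tested. In the fit without KOAC10-8, 6 of the 9 were above 0, as were 7929 of all genes, and the median was 0.16. That fit, again limma with adjusted p, called 0 members beside 0.0435% of all genes; in it, Amt alone had an unadjusted p under 0.05.

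Gldc and Amt, the glycine-specific enzymes of the cleavage system, were the members whose KO values all lay above the WT values, 2 of 9 beside 5.61% of all genes. Gldc was at 11.7, 15.2 and 12.6 FPKM in KOAC10-5, KOAC10-8 and KOAC8-6 and at 11.1, 9.87, 11.0 and 8.93 FPKM in KOAC10-2, KOAC10-7, KOAC8-1 and KOAC9-1. The highest KO value was again that of KOAC10-8, and the lowest KO embryo lay close above the highest WT embryo. The KO mean was 13.1 ± 1.81 FPKM (SD, n = 3), 129% of the WT mean. The log2 difference was 0.33 (SE 0.11, 95% confidence interval 0.07 to 0.59, limma adjusted p = 0.359), and the two-sided exact permutation p = 0.0286 is the smallest that the 35 assignments of 7 embryos allow. Without KOAC10-8 the difference was 0.23 (SE 0.10).

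The KO values of Amt were 20.8, 20.01 and 19.3 FPKM and its WT values 17.5, 18.6, 17.3 and 18.2 FPKM, in the same order of embryos. The groups did not overlap, but the step between them was small and KOAC10-8 was not the highest. The KO mean of 20.03 ± 0.754 FPKM (SD, n = 3) was 112% of the WT mean, a log2 difference of 0.16 (SE 0.05, 95% confidence interval 0.03 to 0.28, limma adjusted p = 0.360) that was also 0.16 without KOAC10-8. Its exact permutation p = 0.0286 is again the smallest possible. Over the 7 embryos Amt and Gldc had a Pearson r of 0.53, so the pair did not rank the embryos alike. Most neural progenitor markers lay on the same side, with 6 of 7 higher in KO at an unadjusted limma p under 0.05. Of all genes tested 5.27% were, and 0 of the markers were called. The markers had a median log2 difference of 0.44, against 0.01 over all genes tested. The marker not higher, Fabp7, had the highest level of the 7, at 345 to 387 FPKM in KO and 336 to 403 FPKM in WT embryos. With Fabp7 included, the markers summed to 661 to 740 FPKM in KO and 598 to 683 FPKM in WT embryos. Sox1 ran from 7.86 to 11.7 FPKM in KO and 5.95 to 8.25 FPKM in WT embryos and Sox2 from 53.4 to 74.5 against 39.9 to 50.3 FPKM, and the part of cell composition in the Gldc and Amt values was not tested.

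The other cleavage system genes, Gcsh and Dld, did not follow. Gcsh was at 54.2, 64.1 and 53.9 FPKM in KO embryos KOAC10-5, KOAC10-8 and KOAC8-6 and at 55.2, 58.4, 58.7 and 55.1 FPKM in WT embryos KOAC10-2, KOAC10-7, KOAC8-1 and KOAC9-1. Both KO embryos other than KOAC10-8 lay below all WT embryos, and KOAC10-8 lay above all of them. The log2 difference was 0.01 (SE 0.07, 95% confidence interval -0.16 to 0.18, limma adjusted p = 0.968) and without KOAC10-8 it was -0.07. Dld, at 69.8, 79.7 and 69.5 FPKM in KO and 68.9, 73.1, 72.3 and 69.3 FPKM in WT embryos, was again highest in KOAC10-8, while the other KO embryos lay within the WT range. Its difference was 0.04 (SE 0.06, 95% confidence interval -0.10 to 0.18, limma adjusted p = 0.828) and -0.02 without KOAC10-8. Gcsh and Dld tracked each other across the 7 embryos (Pearson r = 0.97, and 0.91 without KOAC10-8), as values of genes measured in the same libraries.

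Among the folate enzymes, the cytosolic Shmt1 was modestly higher in KO embryos. It was at 27.8, 31.9 and 33.2 FPKM in KOAC10-5, KOAC10-8 and KOAC8-6, with WT values of 27.7, 25.7, 27.9 and 25.1 FPKM, so that KOAC10-5 alone fell among the WT values. The means were 31.0 ± 2.80 (SD, n = 3) and 26.6 ± 1.42 FPKM (SD, n = 4), a log2 difference of 0.21 (SE 0.07, 95% confidence interval 0.03 to 0.39, limma adjusted p = 0.385), with a two-sided exact permutation p = 0.0571. Mthfd1, the cytosolic trifunctional enzyme, was at 25.5, 29.2 and 27.5 FPKM in KO and 25.2, 24.6, 32.1 and 27.4 FPKM in WT embryos. Its groups overlapped throughout, with a difference of 0.01 (SE 0.10, 95% confidence interval -0.23 to 0.24, limma adjusted p = 0.983).

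The mitochondrial folate enzymes had the largest KO to WT differences of the 9 members, and these rested on KOAC10-8. Mthfd2 was at 20.03, 107 and 31.5 FPKM in KOAC10-5, KOAC10-8 and KOAC8-6, and the WT values were 20.01, 19.4, 22.6 and 23.6 FPKM. KOAC10-8 stood far above every other embryo, KOAC8-6 somewhat above the WT embryos, and KOAC10-5 within them. The KO mean of 52.8 ± 47.2 FPKM (SD, n = 3) against 21.4 ± 2.01 FPKM (SD, n = 4) gave a log2 difference of 0.91 (SE 0.50, 95% confidence interval -0.26 to 2.08, limma adjusted p = 0.523) and an exact permutation p = 0.0857. Without KOAC10-8 the difference was 0.23 (SE 0.18). Shmt2 had the same pattern, at 46.9, 170 and 66.9 FPKM in KO and 44.3, 42.9, 49.3 and 50.1 FPKM in WT embryos. The KO mean was 94.7 ± 66.3 FPKM (SD, n = 3) beside the WT mean of 46.7 ± 3.56 FPKM (SD, n = 4), a log2 difference of 0.79 (SE 0.39, 95% confidence interval -0.12 to 1.71, limma adjusted p = 0.484) and 0.26 (SE 0.15) without KOAC10-8. Mthfd1l was at 8.096, 16.9 and 10.24 FPKM in KO and 7.14, 7.21, 10.71 and 8.22 FPKM in WT embryos. Here KOAC8-6 fell below the WT embryo KOAC8-1, and the difference was 0.41 (SE 0.24, 95% confidence interval -0.16 to 0.97, limma adjusted p = 0.544) with KOAC10-8 and 0.13 (SE 0.18) without it.

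**Figure D2:**
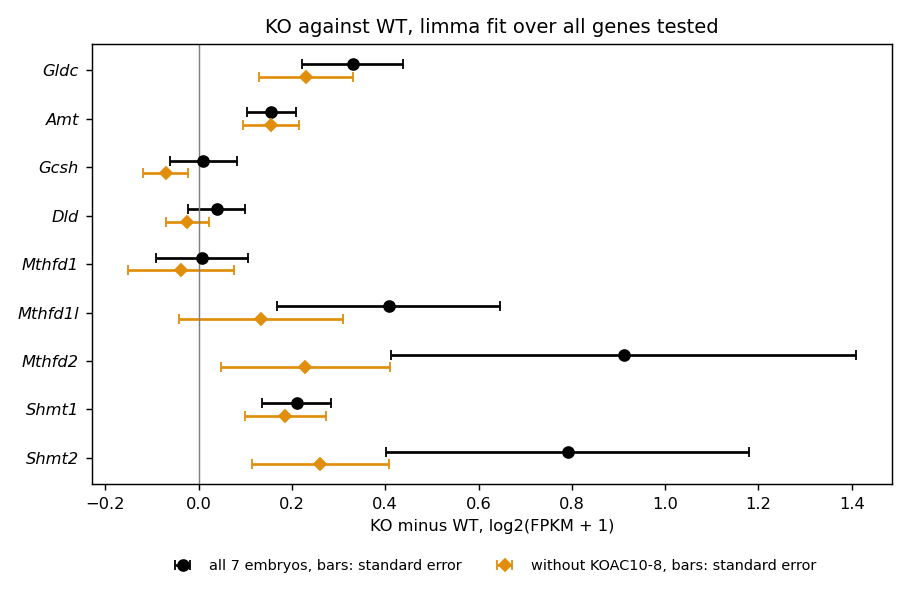
KO minus WT difference of the 9 members in log2(FPKM + 1), from limma, with SE as bars. Black circles use all 7 embryos and orange diamonds leave out KOAC10-8; the difference of Mthfd2 falls from 0.91 to 0.23 and that of Shmt2 from 0.79 to 0.26, while Amt is at 0.16 in both.

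The labels number embryos within the series KOAC8, KOAC9 and KOAC10 without saying what a series is. In KOAC8 the KO embryo differed from the WT embryo by a log2 value of 0.47 for Mthfd2, 0.43 for Shmt2, 0.18 for Gldc, 0.15 for Amt and 0.24 for Shmt1. In KOAC10 the 2 KO embryos differed from the mean of the 2 WT embryos by 1.203, 1.02, 0.32, 0.17 and 0.15 for the same genes in the same order. The other 4 members were lower in the KO embryo of KOAC8 and higher in the mean of the 2 KO embryos of KOAC10. The differences were -0.22 and 0.13 for Mthfd1, -0.12 and 0.05 for Gcsh, -0.06 and 0.64 for Mthfd1l, and -0.06 and 0.07 for Dld. KOAC10-5 itself lay below the WT mean of KOAC10 for Gcsh (-0.07) and Dld (-0.02). The split within KOAC10 was uneven for Mthfd2, where KOAC10-5 was 0.02 and KOAC10-8 2.38 above the WT mean. For Shmt2 these values were 0.10 and 1.94. Within this series KOAC10-8 alone was liver-rich, with a hepatoblast marker sum of 569 FPKM against 31.1 to 44.8 FPKM in the others. The part of this in the within-series values was not tested. KOAC9 held 1 WT embryo and gives no within-series value.

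Set against the mean of the other 6 embryos, KOAC10-8 had 4.68 times the Mthfd2, 3.40 times the Shmt2 and 1.96 times the Mthfd1l. It had 1.40 times the Gldc, 1.15 times the Gcsh and Shmt1, 1.13 times the Dld, and 1.08 times the Mthfd1 and Amt. The 3 mitochondrial folate enzymes were thus the members that stood out, with Gldc next and Gcsh, Dld and Amt close to the other embryos. KOAC10-8 was the highest embryo for 6 of the 9 members, beside 26.4% of all genes tested. It was at 2 times or more the highest of the other 6 embryos for 2 of the 9, Mthfd2 and Shmt2, beside 0.205% of all genes, or 33 of them; this threshold was chosen after the values were seen. Ordered by that ratio, Mthfd2 was gene 11 and Shmt2 gene 23 of 16095. In the other embryos 8 to 13 genes reached the same mark, with 0 members among them.

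The balance between mitochondrial and cytosolic enzymes differed accordingly in KOAC10-8. The Shmt2 to Shmt1 ratio was 5.34 there and 1.603 to 2.02 in the other 6 embryos. The Mthfd1l to Mthfd1 ratio was 0.579 against 0.283 to 0.372. Mthfd2 has a close relative, Mthfd2l, which at 30.2 FPKM in KOAC10-8 lay within its range of 27.9 to 33.3 FPKM elsewhere, and the Mthfd2 to Mthfd2l ratio was 3.54 against 0.601 to 0.949. Mthfd2 and Shmt2 ordered the embryos almost identically (Pearson r = 0.999 over 7 embryos, 0.99 without KOAC10-8).

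**Figure D3:**
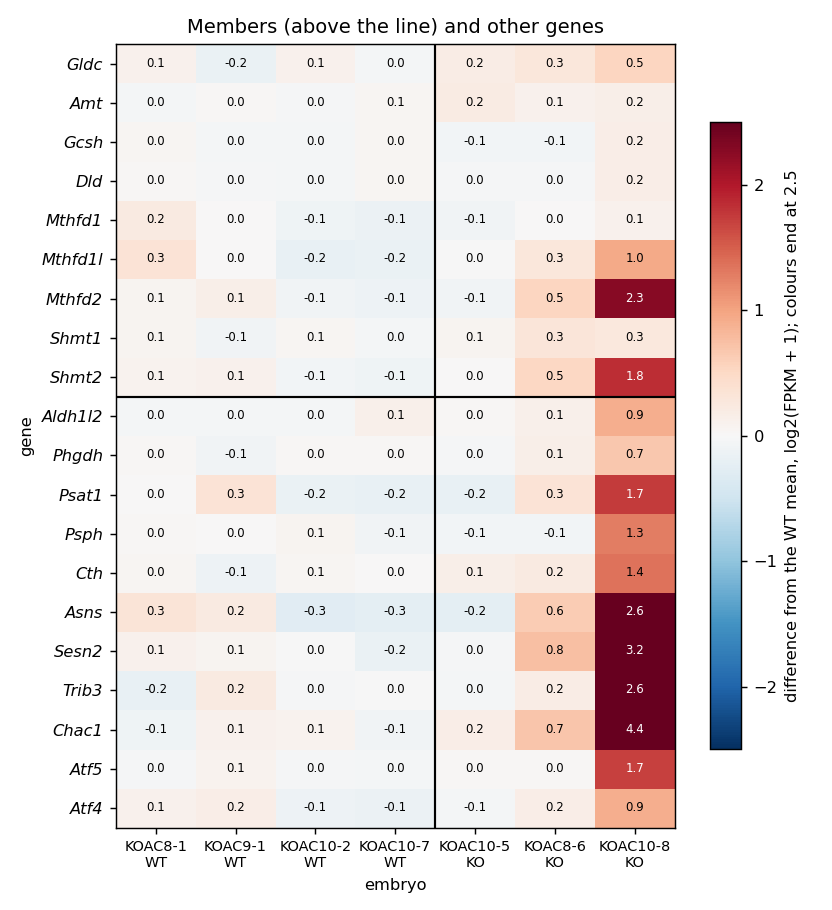
Difference of each embryo from the WT mean in log2(FPKM + 1), with the 9 members above the horizontal line and 11 other genes below it. These are from the serine synthesis and ATF4 lists, with Aldh1l2 of the folate conversion list and Cth of the transsulfuration list. The lists are not shown whole, and Sfxn1, Sfxn3 and Ddit4 are among the genes left out. WT embryos are to the left and KO embryos to the right of the vertical line. KOAC10-8, the right column, is far above the WT mean for Mthfd2, Shmt2, Psat1, Asns, Sesn2, Trib3 and Chac1, and KOAC8-6 is above it by less. The WT embryo KOAC9-1 is as far above it as KOAC8-6 for Psat1 (0.34 in both) and further for Trib3 (0.23 against 0.18).

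The 3 enzymes that make serine were high in the same embryo, and the 2 mitochondrial serine carriers were not high alike. Phgdh, the first enzyme of serine synthesis and the highest of its list, was at 163 FPKM in KOAC10-8 and 96.5 to 113 FPKM in the other 6. Of its 50-base stretches 47.8% also occur in other genes, so its value is uncertain. Psat1, the second enzyme, was at 187 FPKM against 48.1 to 69.7 FPKM, and Psph, the last, at 29.3 FPKM against 10.6 to 11.9 FPKM. The mitochondrial serine carrier Sfxn1 was at 33.9 FPKM against 27.1 to 30.8 FPKM, close to them, and its relative Sfxn3 was lowest in KOAC10-8, at 7.83 FPKM against 9.24 to 11.7 FPKM. None of the 5 genes of the list was called between the genotypes, and the median log2 difference was 0.26 with and 0.04 without KOAC10-8.

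The amino acid stress genes regulated by ATF4, a transcription factor made when amino acids run short or proteins misfold, went furthest. Chac1, which degrades glutathione, was at 29.6 FPKM in KOAC10-8 and 0.360 to 1.36 FPKM in the other 6 embryos. Trib3, a stress-induced pseudokinase, was at 14.1 FPKM against 1.24 to 1.99 FPKM, and Asns, asparagine synthetase, at 124 FPKM against 15.8 to 30.9 FPKM. Atf4 itself, the highest of the list, was at 162 FPKM against 78.1 to 97.0 FPKM. Of the list's 11 entries (10 genes, with Ddit3 under 2 identifiers) 10 were highest in KOAC10-8, beside 26.4% of all genes tested. In it, 7 were at 2 times or more the next embryo, beside 0.205% of all genes. The list was chosen with earlier results of these data known, so these counts are a description only. None was called between KO and WT; 2 had an unadjusted limma p under 0.05, Atf3 and Ddit4, both higher in KO. The median log2 difference was 0.90, and it was 0.17 without KOAC10-8, where Chac1 no longer passed the minimum level. The second Ddit3 entry ran from 13.99 to 27.3 FPKM in KO and from 0 to 13.7 FPKM in WT embryos, and all its 50-base stretches also occur in the other Ddit3 entry, so its value is uncertain. In 5 of the 11 entries (Ddit4, Atf3, Chac1, Slc7a11 and the second Ddit3) every KO value lay above every WT value, beside 5.61% of all genes; Atf3 differed by 0.91 with and by 0.39 without KOAC10-8. Ddit4, an inhibitor of mTORC1 signalling, was the entry not highest in KOAC10-8. It was at 65.4, 55.6 and 58.8 FPKM in KOAC10-5, KOAC10-8 and KOAC8-6, with the WT embryos at 35.4 to 42.2 FPKM, a log2 difference of 0.62 (SE 0.09, limma adjusted p = 0.165).

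**Figure D4:**
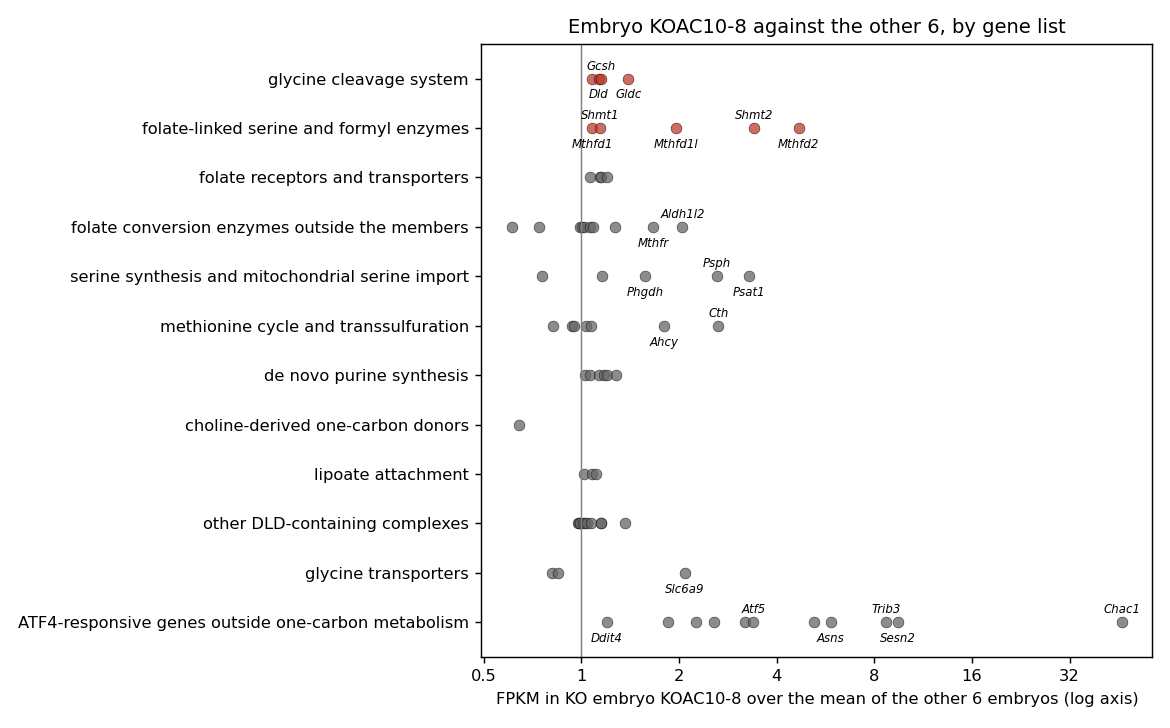
FPKM in the KO embryo KOAC10-8 divided by the mean of the other 6 embryos, on a log axis, 1 point per gene tested, with the 2 groups of members in red and the other lists in grey. Mthfd2, Shmt2 and Mthfd1l lie to the right with Psat1, Psph, Cth and most of the ATF4 list, Gldc lies at 1.40, and Amt, Gcsh, Dld and the folate transport, purine and lipoate genes lie near 1.

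Other features of KOAC10-8 also stood apart. Its skeletal muscle markers summed to 238 FPKM, against 276 to 288 FPKM in the other KO embryos and 379 to 531 FPKM in the WT embryos, with Myod1 at 3.54 FPKM against 6.69 to 12.5 FPKM and Myog at 8.24 FPKM against 17.0 to 33.8 FPKM in the other 6. Its 8 proliferation markers summed to 1298 FPKM against 1001 to 1202 FPKM, with Mki67 at 81.3 FPKM within the range of the others and Top2a at 283 FPKM above their 197 to 272 FPKM. Its erythroid markers summed to 19208 FPKM, the highest of the KO embryos, below 21007 to 26491 FPKM in WT embryos. Hba-x was at 2887 FPKM in KOAC10-8 and 1632 to 3095 FPKM elsewhere, and Hbb-y at 9426 FPKM in it, 7940 and 9229 FPKM in the other KO and 12130 to 15294 FPKM in the WT embryos. Its hepatoblast sum of 569 FPKM lay within that of the liver-rich embryos, and its Slmap value of 16.6 FPKM within that of the KO embryos. The part of these features in its Mthfd2 and Shmt2 values was not tested. Between the genotypes 0 of the marker genes were called by limma. At an unadjusted limma p under 0.05, 7 of 10 muscle markers, 3 of 7 erythroid markers and 1 of 10 hepatoblast markers (Ttr) were lower in KO. Of all 16095 genes tested, 997 were lower in KO at that level and 849 were higher. Of the proliferation markers, 0 of 8 passed it.

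Around the members, the other one-carbon genes differed little between the genotypes. Of 56 further genes in the one-carbon lists, 49 passed the minimum level and 0 were called by limma. At an unadjusted limma p under 0.05, 2 of the 49 were higher in KO (Paics and Dhtkd1) and 2 lower (Aldh1l1 and Slc25a38). These counts were near the share over all 16095 genes tested, of which 849 were higher and 997 lower at that level. The median log2 difference of the 49 genes was 0.06, and 0.01 without KOAC10-8. The folate receptors and transporters had a median of -0.02 over 4 genes, and the highest of them, the reduced folate carrier Slc19a1, was at 12.4 to 14.1 FPKM in KO and 11.2 to 13.1 FPKM in WT embryos. The folate conversion enzymes had a median of 0.04 over 10 genes. Tyms, which makes thymidylate, was at 110 to 129 FPKM in KO and 117 to 126 FPKM in WT embryos, and Aldh1l2, the mitochondrial formyl-folate dehydrogenase, was at 7.90 FPKM in KOAC10-8 and 3.61 to 4.21 FPKM in the other 6. The purine synthesis genes had a median of 0.11 over 6 genes, with the highest, Paics, at 164 to 209 FPKM in KO and 155 to 164 FPKM in WT embryos.

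In the methionine cycle and transsulfuration list, the median was 0.02 over 7 genes. Mat2a, which makes S-adenosylmethionine, was the highest at 124 to 134 FPKM in KO and 122 to 131 FPKM in WT embryos. Cth, the enzyme that releases cysteine, had KO values of 7.87, 19.6 and 8.39 FPKM and WT values of 6.39 to 7.36 FPKM, without overlap, and its log2 difference of 0.58 (SE 0.28, limma adjusted p = 0.482) was 0.18 without KOAC10-8. Ahcy, which clears S-adenosylhomocysteine, was at 80.9 to 90.3 FPKM in KOAC10-8, KOAC8-6 and the WT embryo KOAC10-2 and at 31.9 to 35.03 FPKM in the other 4. The gene model Gm4737 was the mirror of it, at 2.74 to 5.42 FPKM in those 3 embryos and 57.4 to 64.7 FPKM in the other 4. Of the 50-base stretches in Ahcy transcripts, 66.0% also occur in Gm4737, and the 2 genes together summed to 86.4 to 99.8 FPKM in every embryo. Each gene alone is therefore uncertain. The members share at most 1.83% of such stretches with any other gene.

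None of the genes that depend on or compete with the cleavage system was called by limma. For single genes named below, KO and WT values did not overlap. Of all 16095 genes tested, 903 had every KO value above and 963 every KO value below the WT values. The lipoate attachment genes had a median of 0.03 over 3 genes, with the lipoate synthase Lias at 21.8 to 25.4 FPKM in KO and 23.0 to 23.8 FPKM in WT embryos. The other complexes that hold DLD had a median of -0.02 over 10 genes, with Pdhb the highest at 93.0 to 98.9 FPKM in KO and 87.7 to 94.985 FPKM in WT embryos. Dhtkd1, a 2-oxoadipate dehydrogenase subunit, was higher in every KO embryo, at 5.77 to 6.42 FPKM against 3.28 to 5.14 FPKM, a log2 difference of 0.52 (SE 0.13, limma adjusted p = 0.286). Pdha1, a pyruvate dehydrogenase subunit, was at 50.2 to 56.8 FPKM in KO and 47.8 to 49.2 FPKM in WT embryos, also without overlap. Bckdha, of the same list, went the other way without overlap, at 20.9 to 22.27 FPKM in KO and 22.32 to 24.4 FPKM in WT embryos. Of the glycine transporters, Slc25a38, the mitochondrial glycine carrier of red cell precursors, was at 18.8, 19.7 and 21.4 FPKM in KO and 23.1 to 27.8 FPKM in WT embryos, a log2 difference of -0.30 (SE 0.08, limma adjusted p = 0.293). The erythroid marker sum lay on the same side, at 14473 to 19208 FPKM in KO and 21007 to 26491 FPKM in WT embryos, and its part in the Slc25a38 value was not tested. Another glycine transporter, Slc6a9, was at 32.8 FPKM in KOAC10-8 and 12.9 to 19.5 FPKM in the other 6 embryos. Its log2 difference was 0.45 (limma adjusted p = 0.534) and 0.14 without KOAC10-8. Of the choline-derived donors, Sardh alone passed the minimum level, at 2.86 to 4.80 FPKM in KO and 3.49 to 6.10 FPKM in WT embryos.

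The genes most like 3 members over the 7 embryos, by Pearson r of log2(FPKM + 1), were as follows, with no test. For Gldc they were Elovl5 (r = 0.997), Cdca7 (r = 0.996) and Irs2 (r = 0.996). For Mthfd1l they were Cebpg (r = 0.994), Chaf1a (r = 0.994) and Spns2 (r = 0.994). For Amt they were Gm16577 (r = 0.974), Vta1 (r = 0.971) and Gm30177 (r = 0.967). KOAC10-8 was the highest of the 7 points for Gldc and Mthfd1l and not for Amt.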

How the data were processed

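RNA from 7 whole embryos, 1 library each (TruSeq RNA kit, Illumina), had been sequenced, and the authors deposited 1 table with FPKM per gene and embryo. The submitters' processing notes name Salmon, DESeq2, MultiQC and the build GRCm38, without roles or versions. The table also holds 5 columns of the authors' own comparison (mean, log2 fold change, its error, p-value and adjusted p), which were not used. Groups came from the genotype labels. The genotypes were compared with limma 3.58.1 (R 4.3.3; eBayes with trend) on log2(FPKM + 1) for genes whose mean reached 1 FPKM, with Benjamini-Hochberg adjustment over 16095 genes and a threshold of 0.05. FPKM are not counts, so no count model was used, depth was not known beyond relative values, and a log2 difference understates the change of low genes. The labels do not say whether embryos of a genotype shared a litter, so p-values measure the spread between these embryos. On simulated data, with 200 genes changed among 16095, the KO against WT fit called 168 at a log2 change of 1 and 190 at 2. It also called 8 and 7 of the unchanged genes. Changes between 0 and 1 were not simulated, so the share called at differences as small as those of Gldc and Amt is not known. Exact permutation tests over 35 assignments were two-sided. Gene positions and shared 50-base stretches came from GENCODE M21 (GRCm38) and promoters from RefSeq (GRCm38.p6). The members and the 16 other lists (10 pathways, 6 of markers) were chosen with earlier results of these data known. Named were all members; per pathway list any gene called, the up to 2 with the largest difference without overlap, and the highest; per marker list the sum and the first 2 genes; the 3 genes most like Gldc, Amt and Mthfd1l; and Slmap. Other genes were named after their values were seen. In all, 20 alternatives were run, 7 of them leaving out an embryo.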

Additional observations from a re-analysis of the deposited data

Results flagged for a closer look

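In the 4 WT embryos the gap of the highest or lowest value to its neighbour, as a share of the range, exceeded Dixon's 95% critical value for 6 of 68 genes examined, where chance gives about 1 in 20, or 3.4. None of the 9 members was among them. The gap was 0.907 for Folr1, highest in KOAC9-1 at 2.71 FPKM against 1.35 to 1.48 FPKM. It was 0.966 for Aldh1l2, highest in KOAC10-7 at 4.21 FPKM, and 0.862 for Phgdh, lowest in KOAC9-1 at 96.5 FPKM. Ahcy gave 0.937, highest in KOAC10-2 at 80.9 FPKM, where Gm4737, with which it shares sequence, was at 5.42 FPKM. Gart gave 0.887, highest in KOAC8-1 at 59.0 FPKM, and Atf5 0.864, highest in KOAC9-1 at 16.1 FPKM. The rule tests groups of 4 or more, so the KO group, with the high Mthfd2 and Shmt2 of KOAC10-8, was not examined by it.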

How the results depend on the processing

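None of the 9 members was called under any of the 20 alternatives; the lowest adjusted p from limma was 0.184 for Shmt1, 0.206 for Gldc, 0.208 for Shmt2, 0.219 for Mthfd2, 0.270 for Mthfd1l and 0.326 for Amt. Gldc, Amt, Shmt1, Shmt2, Mthfd2 and Mthfd1l kept their direction in all 20. The count of genes called, 6, was 10 with log2 Afp as a covariate and 7 to 12 with an embryo left out, the 12 without the WT embryo KOAC8-1. With Afp as a covariate, 1 gene of the marker lists (Ttr) was called and otherwise 0. The small differences changed sign. That of Gcsh was -0.00187 on a common FPKM sum, -0.0138 after quantile normalization, -0.00461 with the label series as a block, -0.0318 with embryo weights and -0.0707 to 0.0529 with an embryo left out, lowest without KOAC10-8. That of Dld was -0.0244 to 0.0730 with an embryo left out, lowest without KOAC10-8. That of Mthfd1 was -0.00435 on a common sum, -0.0102 after quantile normalization, -0.0392 with Afp as a covariate and -0.0390 to 0.0846 with an embryo left out. The cause was not tested. Beside these 3, Mthfd2, Shmt2 and Mthfd1l moved by over 1.5 times with an embryo left out. From without KOAC10-8 to without KOAC10-5, Mthfd2 went from 0.23 to 1.41, Shmt2 from 0.26 to 1.18 and Mthfd1l from 0.13 to 0.62. No paired analysis was possible because KO and WT embryos share no replicate number; with the label series as a block, 7 genes and 0 members were called.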
